A study of Danio rerio with 10 samples.

Results

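The rows ENSDARG00000006526 (FN1), ENSDARG00000042780 (APOB), ENSDARG00000012609 (hpxa) and ENSDARG00000045089 (apcs) are 4 of the 32266 rows of a count table of zebrafish liver small RNA libraries. They encode secreted liver proteins and were chosen because their fragments were the most reduced of such proteins in transgenic livers. They were thus selected on their ABC to WT difference in counts in these same fish, so their levels in that comparison are given as a description without a test. Livers of 5 ABC fish (replicates 6 to 10) and 5 WT fish (replicates 1 to 5) were compared, all male and 4 months old. ABC fish carry Tg(fabp10a-pt-beta-cat), in which the hepatocyte promoter fabp10a drives activated β-catenin, and were diagnosed with hepatocellular carcinoma by histology. WT fish are their non-transgenic siblings. Each library holds 1 liver, less a small piece taken for histology.

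Fibronectin (FN1) circulates in plasma and is assembled into the extracellular matrix, where it binds integrins and collagen. Apolipoprotein B (APOB) is the structural protein around which the liver builds very-low-density lipoprotein, hemopexin (hpxa) binds free heme in plasma, and serum amyloid P (apcs) is a pentraxin related to C-reactive protein. Their mRNAs come largely from hepatocytes, as does miR-122, the dominant microRNA of the liver. A small RNA library is built to capture microRNAs, so what was counted here are short fragments of these mRNAs in reads of 50 bases, and a count is not a measure of the intact transcript. Fewer cells of a type and less RNA per cell cannot be told apart in whole-liver samples.

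The row set beside them, ENSDARG00000083634, is called the mir-122 row here. It was matched to dre-mir-122 in earlier work on these data by its values alone, and the gene name table used here gives the identifier another symbol, mir124-1, so its identity is not settled by annotation. This row took between 29.3% and 44.4% of all counts in ABC fish and between 64.2% and 70.5% in WT fish. Total counts lay between 1236439 and 2408262 in ABC fish and between 1423307 and 2609547 in WT fish. Rows other than pre-miRNAs, the class to which the 4 transcripts belong, took 5.49% to 6.94% of the counts in ABC fish and 2.54% to 5.32% in WT fish. Together the 4 transcripts made up 0.0347% to 0.113% of that class in ABC fish and 0.463% to 1.95% in WT fish.

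FN1 had 14, 15, 34, 15 and 31 counts in ABC replicates 6 to 10, against 211, 238, 115, 322 and 1000 counts in WT replicates 1 to 5. After scaling by trimmed mean of M-values (TMM), which sets each library relative to the bulk of its features, FN1 had 6.68, 5.79, 22.6, 5.49 and 15.7 counts per 1000000 (CPM) in ABC fish and 228, 170, 75.4, 175 and 551 CPM in WT fish. The groups did not overlap, with the highest ABC fish (replicate 8) below the lowest WT fish (replicate 3). FN1 averaged 11.2 ± 7.62 CPM in ABC fish and 240 ± 182 CPM in WT fish (SD, n = 5 each). Its fitted log2 fold-change (L2FC) of ABC over WT was -4.42 ± 0.64 (SE). Without WT replicate 5, which alone held 53.0% of the WT counts of FN1, the L2FC was -3.94.

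A second row, ENSDARG00000019815, carries the same symbol FN1, and the zebrafish annotation of RefSeq has 2 fibronectin genes, fn1a and fn1b. The second row had 2, 1, 2, 1 and 3 counts in ABC fish and 2, 0, 0, 3 and 1 in WT fish. These counts are too few to show a difference (edgeR's quasi-likelihood test over rows with at least 10 counts, L2FC 0.21, adjusted p = 0.941). Which of the 2 genes each row is was not settled by the names used here.

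APOB had 65, 29, 16, 24 and 48 counts in ABC fish and 175, 170, 77, 161 and 356 counts in WT fish. The scaled values were 31.0, 11.2, 10.6, 8.78 and 24.3 CPM in ABC fish, against 189, 121, 50.5, 87.5 and 196 CPM in WT fish. ABC replicates 6 and 10 were the highest of their group but stayed under every WT fish. APOB averaged 17.2 ± 9.88 CPM in ABC fish and 129 ± 63.2 CPM in WT fish (SD, n = 5 each), with an L2FC of -2.90 ± 0.52 (SE). It was the member that depended least on WT replicate 5, without which its L2FC was -2.78.

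hpxa had 33, 3, 16, 2 and 10 counts in ABC fish and 56, 31, 52, 35 and 344 counts in WT fish. That is 15.7, 1.16, 10.6, 0.732 and 5.06 CPM in ABC fish and 60.4, 22.2, 34.1, 19.0 and 189 CPM in WT fish. The groups did not overlap, but ABC replicate 6 came close to WT replicate 4, and the ABC fish ranged over 21.5-fold among themselves. hpxa averaged 6.66 ± 6.45 CPM in ABC fish and 65.0 ± 71.4 CPM in WT fish (SD, n = 5 each). Its L2FC of -3.30 ± 0.90 (SE) was the least certain of the 4. It moved to -2.46 without WT replicate 5, which held 66.4% of the WT counts, and to -3.91 without ABC replicate 6.

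apcs was the sparsest, with 7, 6, 1, 3 and 3 counts in ABC fish and 9, 24, 16, 30 and 116 counts in WT fish. Scaled, apcs had 3.34, 2.32, 0.665, 1.098 and 1.52 CPM in ABC fish and 9.71, 17.2, 10.5, 16.3 and 63.9 CPM in WT fish. The groups did not overlap in CPM, although the raw counts of ABC replicate 6 and WT replicate 1 differed by only a few. apcs averaged 1.79 ± 1.06 CPM in ABC fish and 23.5 ± 22.8 CPM in WT fish (SD, n = 5 each). Its L2FC was -3.66 ± 0.65 (SE) with all fish and -2.98 without WT replicate 5.

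**Figure D1:**
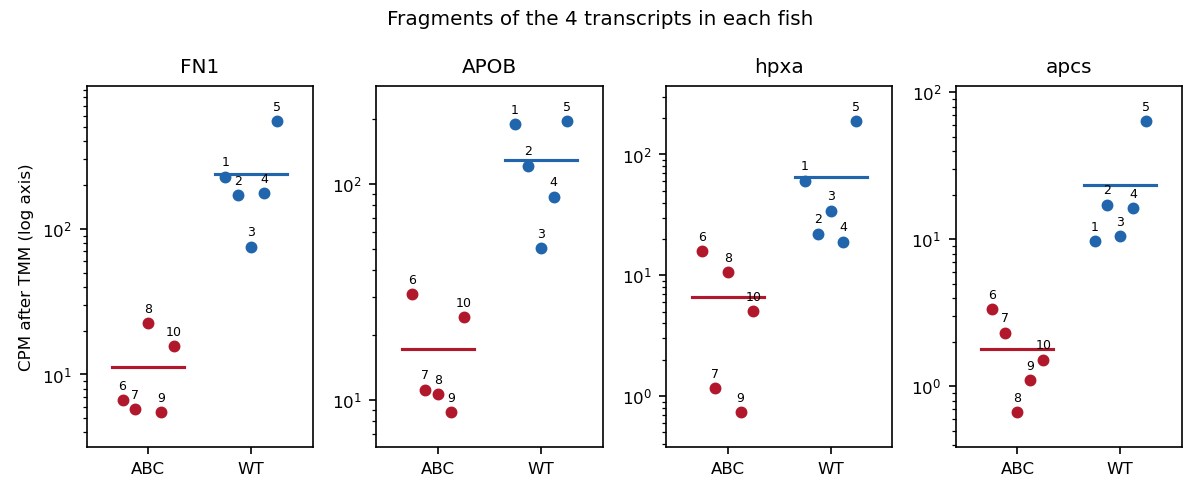
Each point is 1 fish, numbered by its replicate, with ABC left of WT; the vertical log axes give CPM after TMM scaling, each panel with its own range, and the line is the group mean. For all 4 transcripts the 5 ABC fish lie below the 5 WT fish, and WT replicate 5 is the highest point.

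In CPM every ABC fish was below every WT fish for 4 of the 4 transcripts, which the choice of members largely fixed. Over the 481 features that passed the filter on low counts this held for 41 (8.52%), and over the 338 of them that are not pre-miRNAs for 22 (6.51%). Groups without overlap in either direction were found for 99 of the 481 (20.6%). The 4 transcripts also separated the groups per 100000 counts of features other than pre-miRNAs, as did 31 of the 338 (9.17%), and in counts per 1000000 of the totals without the mir-122 row, as did 23 (6.8%). The fit over all features called 58 lower (12.1%) and 84 higher (17.5%) in ABC, where a call required edgeR's adjusted p to be below 0.05 together with an L2FC of 0.5 or more in size. The filter asked for about 5.71 counts per 1000000 of all counts in at least 5 fish. FN1 and APOB reached this level in 5 ABC fish, hpxa in 3 and apcs in 0, while each reached it in the 5 WT fish. apcs and hpxa thus entered the fit through the WT fish.

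Ordered by L2FC, FN1, apcs, hpxa and APOB were numbers 4, 6, 7 and 10 from the lowest of the 481 features. The pre-miRNAs dre-mir-216b (-5.56), MIR217 (-5.09), MIR10A (-4.62) and MIR216A (-4.03) lay among or below them. cbln8, at -3.24, and KLHL25, at -2.93, lay between hpxa and APOB. Just outside came FASN, the fatty acid synthase gene, at -2.88, a value hardly different from that of APOB, and then mir1-2 at -2.78, the complement gene c3a.2 at -2.75 and apoa1a at -2.70. The exact ranks of the 4 transcripts belong to this filter. Among the features other than pre-miRNAs with at least 10 counts over the 10 fish, of 3719 features in all, they ranked 40 (FN1), 59 (apcs), 68 (hpxa) and 92 (APOB) from the lowest. Their L2FC minus the median of those other features was then -4.54 for FN1, -3.64 for apcs, -3.26 for hpxa and -2.94 for APOB.

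WT replicate 5 was the highest WT fish for each of the 4 in CPM, at 3.19 times the median of the other WT fish for FN1, 1.88 times for APOB, 6.73 times for hpxa and 4.76 times for apcs. This fish was also high in general. Of the 338 tested features other than pre-miRNAs, 166 (49.1%) had their highest WT value in it, and the median ratio to the other WT fish was 1.46. Scaled instead to 100000 counts of features other than pre-miRNAs, that median ratio was 1.06. On the same scale the ratio of WT replicate 5 to the median of the other WT fish was 2.32 for FN1, 1.37 for APOB, 4.92 for hpxa and 3.41 for apcs.

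Genes of the exocrine pancreas, which in zebrafish lies next to and partly within the liver, moved with the groups and with this fish. Of the 13 markers listed, such as the proteases prss1 and ela2 and the amylase amy2a, 12 rows were found, and their summed level was 2.86 to 6.95 CPM in ABC fish and 35.6 to 753 CPM in WT fish. The top of the WT range was WT replicate 5, and the other WT fish reached 102 CPM. None of these rows passed the default filter. With at least 10 counts, 10 of 10 were lower in ABC by edgeR's quasi-likelihood test, against 127 of 3719 features lower (3.41%) and 162 higher (4.36%). Of the muscle markers, 0 counts were found in ABC fish, against a summed 0.544 to 28.1 CPM in WT fish, again highest in WT replicate 5. The part of other tissue in the values of the 4 transcripts was not tested. Without WT replicate 5, the L2FC was between -3.94 (FN1) and -2.46 (hpxa) for the 4. Leaving out that fish is no test of other tissue, because the remaining WT fish still had 35.6 to 102 CPM of the pancreas markers.

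Of the 5 hepatocyte markers listed, 4 were tested and 1, apoa1b, was called lower, against 12.1% of all features lower and 17.5% higher. fabp10a, the fatty acid binding protein gene whose promoter drives the transgene, had 96, 31, 198, 65 and 86 counts in ABC fish and 133, 69, 38, 56 and 261 in WT fish, groups that overlapped (L2FC -0.61, edgeR adjusted p = 0.535). HNF4A, a transcription factor of hepatocytes, had an L2FC of 1.31 (edgeR adjusted p = 0.134). Of the biliary markers 2 rows were tested and 1, the keratin gene krt18a.1, was called higher in ABC (L2FC 2.67, edgeR adjusted p = 0.00738). With at least 10 counts, 1 of 5 was called higher, against 4.36% of all features. ABC replicate 8 had 114 CPM of krt18a.1, where the other ABC fish had 19.1 to 27.3 CPM. The summed level of the biliary list was 46.3 to 197 CPM in ABC fish and 12.9 to 49.5 CPM in WT fish. The top of the ABC range was ABC replicate 8, and the other ABC fish reached 52.6 CPM.

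The mir-122 row was also lower in ABC fish. It had 490101, 705054, 548695, 867692 and 495510 counts in ABC replicates 6 to 10, against 971884, 1187026, 1321200, 1674583 and 1234685 counts in WT replicates 1 to 5. The groups did not overlap. In the fit over all features its L2FC was -1.60 ± 0.22 (SE; edgeR adjusted p = 8.03e-04). Its level in TMM-scaled CPM was 233749 to 364705 in ABC fish and 679707 to 1048476 in WT fish. A level above the nominal total of a library arises because the scaled library size of WT replicate 1, with a TMM factor of 0.65, is smaller than its total. WT replicate 5, the highest WT fish for the 4 transcripts, had the lowest WT value of the mir-122 row in CPM but the highest as a share of all counts, 70.5%.

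Set against the mir-122 row, which removes the scaling of the library from the comparison, the 4 transcripts differed from each other. Per 100000 counts of that row, FN1 had 2.86, 2.13, 6.20, 1.73 and 6.26 counts in ABC fish and 21.7, 20.1, 8.70, 19.2 and 81.0 in WT fish. FN1 still separated the groups completely, and was the 1 feature of the 338 other than pre-miRNAs (0.296%) with every ABC fish below every WT fish on this scale. Since FN1 was chosen on the same comparison, this is a description. For apcs the ratios were 1.43, 0.851, 0.182, 0.346 and 0.605 in ABC fish and 0.926, 2.02, 1.21, 1.79 and 9.40 in WT fish, so that 4 of the 5 ABC fish were below the lowest WT fish. APOB had ratios of 13.3, 4.11, 2.92, 2.77 and 9.69 in ABC fish and 18.01, 14.3, 5.83, 9.61 and 28.8 in WT fish. For hpxa they were 6.73, 0.425, 2.92, 0.230 and 2.02 in ABC fish and 5.76, 2.61, 3.94, 2.09 and 27.9 in WT fish. For APOB and hpxa only 3 of the 5 ABC fish lay below every WT fish. The L2FC of the member minus that of the mir-122 row was -2.83 for FN1, -2.06 for apcs, -1.70 for hpxa and -1.30 for APOB.

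**Figure D2:**
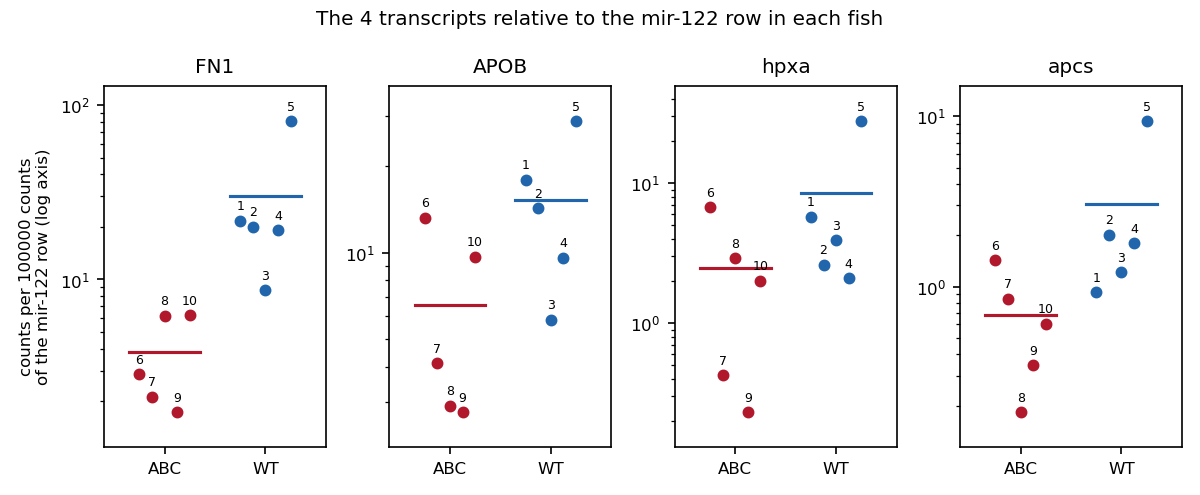
Counts of each transcript per 100000 counts of the mir-122 row, on vertical log axes with a range for each panel; points are fish numbered by replicate, ABC left of WT, and lines are group means. The groups are apart for FN1, with a highest ABC ratio of 6.26 and a lowest WT ratio of 8.70, and overlap for APOB, hpxa and apcs.

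Scaled by total counts alone, the L2FC was -3.85 for FN1, -3.17 for apcs, -2.74 for hpxa and -2.20 for APOB. That scaling raised the median L2FC of all 481 features by 0.66. A change of scaling shifts all features by a similar amount. Subtracting the median of the same fit largely cancels that shift by construction, so it is no test of the scaling. Relative to the median of the tested features other than pre-miRNAs the values therefore hardly moved. Over the scalings and both tests, at the default filter and with all fish, they lay between -4.73 and -4.62 for FN1, between -4.12 and -3.81 for apcs, between -3.67 and -3.43 for hpxa and between -3.17 and -3.08 for APOB. As counts per 1000000 of the library total, APOB and hpxa no longer separated the groups, with 4 of 5 ABC fish below every WT fish for each. On that scale ABC replicate 6 had 43.0 APOB counts per 1000000, against 38.7 in WT replicate 3. It had 21.8 hpxa counts per 1000000, against 13.4 in WT replicate 4. Groups without overlap were rarer on that scale, at 6 of 338 features (1.78%).

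**Figure D3:**
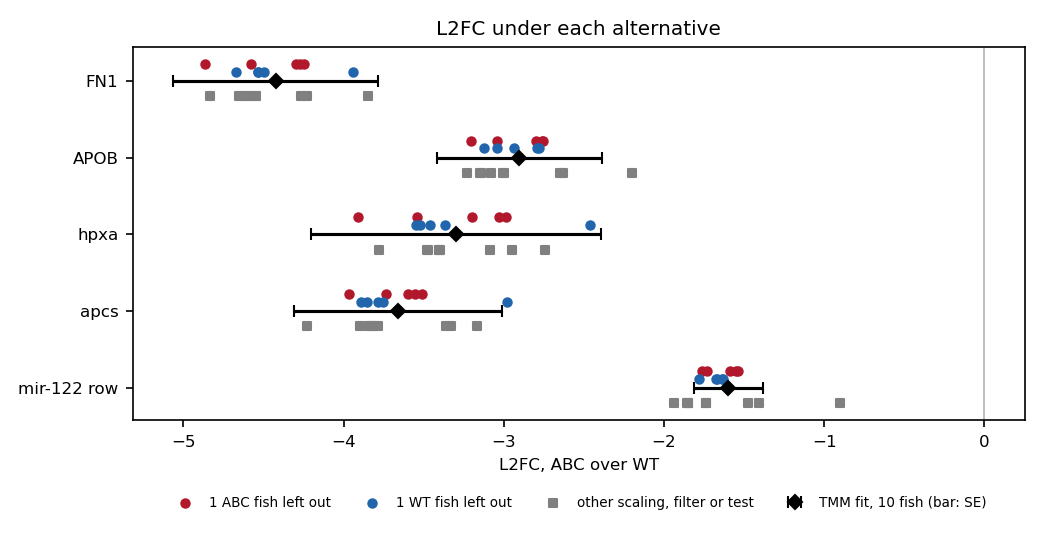
L2FC of ABC over WT on the horizontal axis for the 4 transcripts and the mir-122 row; the black diamond is the fit with TMM and all 10 fish with its SE, red and blue points leave out 1 ABC or 1 WT fish, and grey squares use another scaling, filter or test. All points lie below 0, with the values nearest 0 for FN1 and APOB under total count scaling (-3.85 and -2.20) and for hpxa and apcs without WT replicate 5 (-2.46 and -2.98).

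The 4 transcripts did not keep fixed proportions to each other, which needs no scaling to see. FN1 counts per APOB count were 0.215, 0.517, 2.13, 0.625 and 0.646 in ABC fish and 1.21, 1.40, 1.49, 2.00 and 2.81 in WT fish. In 4 of the 5 ABC fish FN1 was therefore lower relative to APOB than in any WT fish, with ABC replicate 8 the exception. The apcs to APOB ratio overlapped between the groups, at 0.0625 to 0.207 in ABC fish and 0.0514 to 0.326 in WT fish. So did the hpxa to APOB ratio, at 0.0833 to 1.00 in ABC fish and 0.182 to 0.966 in WT fish. The ABC fish also ranked differently by gene, with replicate 6 highest for APOB, hpxa and apcs and replicate 8 highest for FN1 but lowest for apcs.

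Deviations of each fish from its group mean, on the log2(CPM + 0.5) scale, were not used to choose the members. Pearson's r over the 10 fish was between 0.30 (FN1 and apcs) and 0.65 (APOB and hpxa) for the 6 pairs of members. Spearman's rho lay between 0.12 and 0.65. None of the 6 passed a two-sided exact permutation test within groups over 14400 arrangements, with Benjamini-Hochberg adjustment over 10 pairs, the smallest adjusted p being 0.215. For APOB and hpxa (p = 0.0628 before adjustment, exact permutation test) r was 0.63 without replicates ABC 6 and WT 3, the 2 fish farthest out in APOB. For FN1 and hpxa (r = 0.64, exact permutation p = 0.0644) it dropped to 0.28 without WT replicate 5 and ABC replicate 8. Without WT replicate 5, r was -0.39 for FN1 and apcs and -0.04 for hpxa and apcs, so their positive values rested on that fish.

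With the mir-122 row the within-group r was -0.05 for FN1, -0.50 for APOB, -0.34 for hpxa and -0.86 for apcs. Spearman's rho was -0.08 for FN1, -0.58 for APOB, -0.32 for hpxa and -0.94 for apcs. The apcs pair alone passed, with an exact permutation p of 0.00201 for r (adjusted over the 10 pairs, 0.0201) and 7.64e-04 for rho (adjusted 0.00764), and an r of -0.76 without WT replicate 5 and ABC replicate 6. Leaving out any 1 of 5 of the 10 fish ended this call. The adjusted p of the exact permutation test was then 0.0764 without ABC replicate 6, 0.0938 without ABC replicate 8, 0.0764 without ABC replicate 9, 0.0590 without WT replicate 1 and 0.194 without WT replicate 5. The relation depended on the scaling, which both values share. With total counts alone r was -0.27 for apcs (exact permutation test, adjusted p = 0.429), and with totals that leave out the mir-122 row it was -0.09 (adjusted p = 0.766). With total counts r was 0.58 for FN1 and 0.34 for hpxa, opposite in sign to the TMM values. With 1 to 7 apcs counts in each ABC fish, an error of a few counts also moves these deviations.

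The features whose deviations were most like those of each member differed between members. For FN1 they were HDLBP (r = 0.98), which encodes the RNA-binding protein vigilin, the prothrombin gene f2 (0.96) and HERC1 (0.95). For APOB they were the lipoprotein receptor gene LRP1 (0.90), FASN (0.86) and ENSDARG00000098343 (0.83). For hpxa they were the apolipoprotein A-I gene apoa1b (0.92), the terminal complement gene c9 (0.90) and NEURL4 (0.89). For apcs they were ENSDARG00000081937 (0.87), macf1a (0.83) and the small nucleolar RNA SNORA73 (0.83). Each r is over 10 fish and was picked as the highest of the tested features, so it is a description. Between groups, HERC1 (L2FC -2.56), FASN (-2.88), apoa1b (-2.45) and c9 (-2.22) were called lower in ABC by edgeR, with adjusted p between 0.0111 for c9 and 0.0328 for FASN. ENSDARG00000081937 (1.32) and SNORA73 (1.25), both neighbours of apcs, were called higher, with edgeR adjusted p of 0.0290 and 0.0362. Over all features 12.1% were called lower and 17.5% higher. The other neighbours were not called, with L2FC between -0.58 for f2 and 0.01 for NEURL4.

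Among the paralogs, 1 of 10 rows passed the default filter and was called lower, against 12.1% of all features lower and 17.5% higher. With 1 row tested, this does not describe the paralogs as a class. apobb.1, which encodes a second apolipoprotein B of zebrafish, had 289, 241, 102, 64 and 267 counts in ABC fish and 380, 509, 259, 255 and 2421 in WT fish (L2FC -2.40, edgeR adjusted p = 0.0190). The highest ABC count was above the lowest WT count. In CPM the groups only just stayed apart, with a highest ABC value of 137.8 and a lowest WT value of 138.6. In CPM every ABC fish was below every WT fish for 41 of the 481 features (8.52%). The APOB to apobb.1 count ratio was 0.120 to 0.375 in ABC fish and 0.147 to 0.631 in WT fish, with overlap. With at least 10 counts, 7 paralog rows could be tested and 4 were called lower, against 127 of 3719 features (3.41%). With total count scaling at the default filter, 0 paralogs were called, so the call of apobb.1 was lost, while 194 of 481 features were called. apobb.2 did not pass the default filter and was tested with at least 10 counts (L2FC -2.87, edgeR adjusted p = 0.00130). It had 7, 2, 4, 3 and 5 counts in ABC fish and 24, 38, 8, 29 and 17 in WT fish. Unlike APOB, it was not highest in WT replicate 5. How reads that match several of these genes were counted is not given in the sources used here, so the split among paralogs is uncertain.

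hpxb, the other hemopexin gene, had 8, 2, 4, 2 and 3 counts in ABC fish and 7, 1, 6, 10 and 12 in WT fish. The groups overlapped, and the difference was not called with at least 10 counts (L2FC -1.18, edgeR adjusted p = 0.294). Of the pentraxin relatives of apcs, crp3 had 0 counts in the 5 ABC fish and 1, 3, 2, 1 and 5 in WT fish. crp5 had 1, 0, 2, 0 and 0 in ABC fish and 0, 0, 18, 9 and 1 in WT fish. Both were called lower at this filter (edgeR adjusted p = 0.00875 for crp3 and 0.0110 for crp5), and the WT counts of crp5 came mostly from WT replicates 3 and 4.

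Of 62 other secreted plasma proteins listed, 20 passed the default filter, of which 9 were called lower and 0 higher, against 12.1% and 17.5% of all features. Their median L2FC was -1.53, against 0.17 for all features tested, and 20 of 20 were below 0. DESeq2's own test called 13 of the 20, each lower, against 81 lower and 84 higher of the 481 features. With at least 10 counts, edgeR tested 43 of the list and called 12 lower and 0 higher, against 3.41% and 4.36% of all features. At that filter the median L2FC of the list was -1.10, against 0.31 for all features, and 41 of 43 were below 0. The list holds what hepatocytes secrete, and earlier results of these data were known when it was written. CP (ceruloplasmin, which carries copper) had an L2FC of -2.41, the fibrinogen chain genes FGB and FGG -2.28 and -2.06, the complement gene c9 -2.22 and the fetuin gene ahsg1 -2.08. serping1 and SERPINC1, which encode the inhibitors of complement C1 and of thrombin, had -2.005 and -1.65, the transferrin gene tfa -1.91 and c5 -1.67. The edgeR adjusted p of these 9 lay between 0.0108 for CP and 0.0328 for tfa. The coagulation genes f2, f5 and F9 were not called, with L2FC of -0.58, -0.45 and -0.36. Calls of the list in either direction numbered 6 without WT replicate 5, where 129 of 501 features were called. They numbered 17 without ABC replicate 8, where 174 of 507 features were called. With total count scaling they numbered 1, where 194 of 481 features were called, 19 of them lower.

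Fibrinogen is a partner of fibronectin in the clot. FGB had 16, 11, 46, 12 and 22 counts in ABC fish and 36, 45, 54, 67 and 245 in WT fish, and FGG had 39, 17, 66, 17 and 51 in ABC fish and 95, 90, 78, 109 and 259 in WT fish. In CPM neither overlapped between groups, where every ABC fish was below every WT fish for 41 of all 481 features (8.52%). For FGB the gap was narrow, at 30.6 CPM in ABC replicate 8 against a lowest WT value of 32.2 CPM. The raw counts of FGB did overlap, with 46 in ABC replicate 8 against 36 in WT replicate 1 and 45 in WT replicate 2. The third chain, fga, was not called, with an L2FC of -1.49 (edgeR adjusted p = 0.112), and ABC replicate 8 had 188 fga counts while the remaining ABC fish had 29 to 39. Of the fibronectin list, which adds integrins and matrix partners, only these 3 passed the default filter. With at least 10 counts, edgeR tested 11 of the list. It called 2 lower, FGB and FGG, and 0 higher, against 3.41% and 4.36% of all features. The median L2FC of the 11 was -1.42, against 0.31 for all features at that filter.

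Among lipoprotein genes, 9 were tested, 4 called lower and 0 higher, against 12.1% and 17.5% of all features, with a median L2FC of -1.69, against 0.17 for all features tested. Beside apobb.1 they were apoa1a (-2.70) and apoa1b (-2.45), which encode the main protein of high-density lipoprotein, and apom (-1.69). apoa2 (-1.69), apoc1 (-1.35), the cholesterol exporter gene ABCA1 (-1.34) and LPL (-0.87) were not called. apoeb, an apolipoprotein E gene, ran the other way without passing the test, with 38, 20, 57, 17 and 43 counts in ABC fish and 14, 6, 12, 8 and 16 in WT fish (L2FC 1.19, edgeR adjusted p = 0.124). Calls of the list in either direction numbered 3 without WT replicate 5, against 129 of 501 features. With total count scaling they numbered 1, against 194 of 481 features. Whether that 1 was lower or higher was not recorded. With at least 10 counts, edgeR tested 24 of the list and called 5 lower and 0 higher, against 3.41% and 4.36% of all features. The median L2FC of the list was -1.16, against 0.31 for all features at that filter. apom was not called there (edgeR adjusted p = 0.117).

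Serum amyloid P and hemopexin are acute phase proteins in some mammals, though not in all. Of the acute phase and complement list 8 were tested, 6 called lower and 0 higher, against 12.1% and 17.5% of all features, with a median L2FC of -2.28, against 0.17 for all features tested. CP, FGB and FGG are shared with the plasma list. The others were the complement C3 genes c3a.2 (-2.75), c3a.1 (-2.36) and c3a.6 (-2.28). How reads that match several C3 genes were counted is not given, so the split of counts among them is uncertain. Calls of the list in either direction numbered 5 without WT replicate 5, against 129 of 501 features. With total count scaling they numbered 3, against 194 of 481 features. With at least 10 counts, edgeR tested 21 of the list and called 10 lower and 0 higher, against 3.41% and 4.36% of all features. The median L2FC of the list was -1.95, against 0.31 for all features at that filter. Of the heme and iron list, tfa was called lower and fth1a, the ferritin heavy chain gene, was not called (L2FC 0.74, edgeR adjusted p = 0.147). The other genes of heme handling did not pass the default filter. With at least 10 counts, edgeR tested 8 of the heme and iron list. It called 1 lower, tfa, and 0 higher, against 3.41% and 4.36% of all features.

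Enzymes of hepatocytes that stay in the cell were not called, with 0 of 8 past the threshold in either direction by edgeR. Over all features 12.1% were called lower and 17.5% higher, so 8 rows give few expected calls. Of the 8, 2 had an unadjusted edgeR p under 0.05, both lower. The median L2FC of the 8 was -0.60, against 0.17 for all features tested. PCK1, of gluconeogenesis, had -1.48 and hpda, of tyrosine breakdown, -1.26, while BHMT, of methionine synthesis, had 1.30, each with groups that overlapped. Whether the secreted and the intracellular lists differ was not tested. DESeq2's own test called 2 of the 8 enzymes lower, against 81 of the 481 features. With at least 10 counts edgeR called 1 of 26, adh8a, lower, against 3.41% of all features. Of the genes of the secretory pathway, HSP90B1 (L2FC -0.11) and CANX (0.57), chaperones of the endoplasmic reticulum, were tested at the default filter and not called. With at least 10 counts, edgeR called 0 of 20 genes of that pathway, against 3.41% of all features lower and 4.36% higher. The β-catenin list holds targets, but also β-catenin itself (CTNNB1, ctnnb2) and its regulator APC, so it is not a list of targets alone. Of this list, 0 passed the default filter. With at least 10 counts 0 of 10 were called by edgeR and 0 by DESeq2. Over all features at that filter edgeR called 3.41% lower and 4.36% higher, so few or no calls are to be expected among 10 rows. Of the 10, 3 had an unadjusted edgeR p under 0.05, none of them lower. The median L2FC of the 10 was 1.14, against 0.31 for all features at that filter, and 2 of the 10 were below 0.

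**Figure D4:**
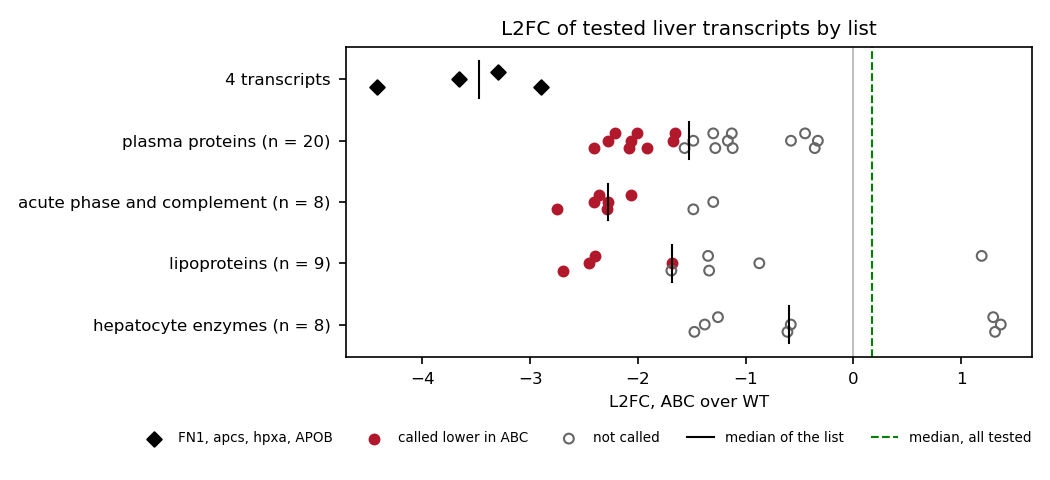
L2FC of ABC over WT on the horizontal axis for the 4 transcripts (diamonds) and for the tested genes of 4 lists (red, called lower; open, not called); black ticks are list medians and the green dashed line is the median of all 481 tested features, 0.17. The 4 transcripts lie at -4.42 to -2.90, below every gene shown in the 4 lists, the lowest of which is c3a.2 at -2.75. The choice of members largely fixed this order.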

How the data were processed

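The authors extracted RNA from each liver, made libraries with a NEBNext small RNA kit, aligned single reads of 50 bases to GRCz10 and counted them using miRBase. The deposited table holds raw counts per Ensembl gene, without normalization, for 32266 rows, of which 16230 had a count, and 0 columns were left unused. The submitters' processing notes name Novoalign and featureCounts. Versions, strand and the handling of reads with several matches are not given in the sources used here. Symbols came from a gene name table, which named 26433 rows. RefSeq was used for gene names only.

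The tests of counts used edgeR 4.0.16 under R 4.3.3 (filterByExpr, TMM over all features, glmQLFit, glmQLFTest, Benjamini-Hochberg adjustment). DESeq2 1.42.0 was an alternative. The fit was tested on simulated data. A call required an adjusted p below 0.05 together with an L2FC of 0.5 or more in size. SE is the L2FC over the square root of F. Total counts limit the precision, and a count of a few reads carries a large counting error. Each sample is 1 fish.

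The members and gene lists were chosen with earlier results of these data known. Named genes are the members, the mir-122 row, paralogs, list genes that passed and up to 4 per list that did not, the lowest L2FC and the 3 features most like each member. Names beyond these were chosen after their values were seen. The values of 1 listed gene are not reported here.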

Additional observations from a re-analysis of the deposited data

Results flagged for a closer look

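In 44 groups of 5 fish, those of 22 genes in ABC and in WT, 15 groups had 1 fish that stood far from the other 4 in CPM. The rule was a gap to the next fish above 0.71 of the range of the group. For independent, normally distributed values it would flag about 1 in 20, or 2.2 groups. These CPM are skewed, and the genes are the 4 transcripts, the mir-122 row and list genes called in this contrast. That rate is therefore not a chance level for them. In 12 of the 15 the fish was WT replicate 5. Among the 4 transcripts, hpxa had 189 CPM in WT replicate 5, where WT replicates 1 to 4 had 19.0 to 60.4 CPM. In the same fish apcs had 63.9 CPM, where they had 9.71 to 17.2 CPM.

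WT replicate 5 stood apart likewise for the apolipoprotein genes apoa1a (189 CPM, others 9.79 to 60.03), apoa1b (511 CPM, others 50.02 to 136), apobb.1 (1333 CPM, others 139 to 410) and apom (23.7 CPM, others 5.00 to 9.24). It did so for the complement genes c3a.1 (577 CPM, others 95.0 to 230.0), c3a.6 (82.0 CPM, others 12.1 to 20.1) and c9 (104 CPM, others 27.5 to 43.6). It also did so for FGB (135 CPM, others 32.2 to 38.8), tfa (1730.3 CPM, others 154 to 492) and serping1 (29.7 CPM, others 8.63 to 14.4).

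ABC replicate 8 stood above the other ABC fish for c3a.6 (16.6 CPM, others 2.195 to 5.72), FGB (30.6 CPM, others 4.24 to 11.1) and the keratin gene krt18a.1 (114 CPM, others 19.1 to 27.3). Their source was not tested.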

How the results depend on the processing

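The L2FC of FN1, APOB, hpxa, apcs and the mir-122 row stayed below 0 under all 19 alternatives, and none of the 4 transcripts moved by more than the SD between fish. Leaving out 1 fish gave -4.86 to -3.94 for FN1, -3.21 to -2.76 for APOB, -3.91 to -2.46 for hpxa and -3.97 to -2.98 for apcs.

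Over all features 142 were called, of which 59.2% were higher. With total counts alone 194 were called, 90.2% higher, and with DESeq2's own test 165, 50.9% higher. The share that was higher was 33.9% when scaled by counts other than pre-miRNAs, 38.5% by totals without the mir-122 row, 42.1% with upper-quartile factors, 43.1% with TMM without that row and 48.4% with DESeq2 size factors. An adjusted p under 0.01 left 46, and with at least 10 counts 289 were called.

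Calls of the gene lists are counted here in either direction. Total counts alone called 0 paralogs, 1 plasma protein, 1 lipoprotein, 3 acute phase and 1 enzyme gene, beside 194 of all 481 features. Enzymes called numbered 1 with TMM without the mir-122 row, 1 with upper-quartile factors, 1 with at least 10 counts, 2 with counts other than pre-miRNAs and 2 with DESeq2's own test, which called 7 lipoprotein genes. With at least 10 counts 10 acute phase genes and 4 paralogs were called, and with at least 1 count 4 paralogs. Without single fish, calls ranged over 1 to 2 paralogs, 6 to 17 plasma proteins and 0 to 2 enzymes. Over all features they then ranged from 98 of 540 without ABC replicate 9 to 174 of 507 without ABC replicate 8.

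The within-group r with the mir-122 row under total counts alone was 0.58 for FN1, 0.34 for hpxa and -0.27 for apcs. Under totals without that row it was 0.70 for FN1, 0.20 for APOB, 0.47 for hpxa and -0.088 for apcs. Without single fish it lay between -0.49 and 0.44 for FN1 and between -0.91 and -0.84 for apcs, whose call was lost without 5 of the 10 fish (adjusted p of the exact permutation test 0.0590 to 0.194). Between members, r without single fish lay between -0.39 and 0.61 for FN1 with apcs and between -0.040 and 0.63 for hpxa with apcs. Scaled by counts other than pre-miRNAs, an alternative chosen after seeing the data, each r kept its sign and its side of the threshold. The cause of these changes was not tested.

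Depth limits apcs most, with 20 counts over the 5 ABC fish. No paired analysis was possible because the labels give no pairing of ABC and WT fish.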
